A study of Mus musculus with 6 samples.

Results

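Lung group 2 innate lymphoid cells (ILC2s) labelled Piezo1 KO or WT were compared, Piezo1 being a mechanosensitive cation channel. The enzymes of the tricarboxylic acid (TCA) cycle were followed in them. Steps that feed pyruvate and glutamate into the cycle and carry citrate out of it were included. The set was named gene by gene: 30 genes, all of them among the 18057 genes of the deposited table, and all 30 had enough counts to be tested. It leaves out succinate dehydrogenase. The 3 libraries labelled Piezo1 KO carried an Il7r-Cre driver together with a floxed Piezo1 allele (genotype label Il7rcrePiezo1flx), and the 3 libraries titled WT carried the Il7r-Cre driver without it (genotype label Il7rcre). The Il7r-Cre driver acts in lymphoid cells that express the IL-7 receptor, so the deletion is not limited to ILC2s.

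Cells of both groups came from the lungs of mice given 3 intranasal doses of 1 µg IL-33 and were then cultured for 24 h in 10 ng/mL of IL-2 and the same concentration of IL-7, so IL-33, IL-2 and IL-7 exposure was common to all 6 libraries. The labels give neither age, sex nor substrain, and do not say that the libraries of a group came from separate animals. The p-values then rest on the spread between libraries only, and that spread may be technical. RNA of many cells was pooled in each library, so a lower share of cells expressing a gene and less RNA per cell cannot be told apart.

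The TCA cycle oxidises acetyl-CoA in the mitochondrial matrix and hands most of the electrons to the respiratory chain as NADH. Pyruvate enters through the mitochondrial pyruvate carrier and the pyruvate dehydrogenase complex, glutamine carbon enters as glutamate and 2-oxoglutarate, and citrate that leaves the matrix is cleaved in the cytosol to supply acetyl-CoA for fatty acid and sterol synthesis. Activated lymphocytes use the cycle both for energy and as a source of building blocks. RNA levels do not measure the activity of these enzymes or the flux through them.

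Total estimated counts ran from 13059046 (WT replicate 3) to 33459904 (WT replicate 2) per library, and the 30 genes took 0.526% to 0.560% of them. WT replicates 3 and 2 also had the lowest quality weights in limma-voom, 0.489 and 0.352, beside 1.03 to 1.91 in the other libraries. The lowest count of a member was 155 (Pcx in WT replicate 3). Levels are given as CPM, counts scaled to a common library size by the trimmed mean of M values (TMM). Piezo1 averaged 127 ± 20.99 CPM in Piezo1_KO and 229 ± 61.4 CPM in WT (SD, n = 3 each), a difference that missed the threshold (log2 fold change −0.85 ± 0.21, SE, adjusted p = 0.112, edgeR quasi-likelihood test). Its level was 150, 109 and 122 CPM in Piezo1_KO replicates 1, 2 and 3 and 247, 278 and 160 CPM in WT replicates 1, 2 and 3. Reads from Piezo1 exons that Cre does not remove may be part of this level, which gene-level counts cannot show. Ribosomal protein genes took 2.57% to 3.39% of the counts in Piezo1_KO and 1.89% to 3.25% in WT, with WT replicate 2 lowest. The 10 ILC2 markers summed to 11489 to 12304 CPM in Piezo1_KO and 10000.3 to 10832 CPM in WT. Summed markers of macrophages lay between 6.59 and 12.9 CPM in Piezo1_KO and between 9.51 and 21.2 CPM in WT, those of T cells between 58.8 and 66.5 CPM in Piezo1_KO and between 41.4 and 47.7 CPM in WT, and those of B cells between 80.2 and 103.7 CPM in Piezo1_KO and between 34.4 and 40.3 CPM in WT. The T cell sum is led by Lck and Cd3g, and the B cell sum by Ighm and Cd79b. Of these lists, 2 of 10 ILC2 markers fell, 1 of 4 tested T cell and 1 of 2 tested B cell markers rose, and 0 of 4 tested macrophage markers passed (edgeR). In other lists, 1 of 2 tested NK and ILC1 and 1 of 2 tested granulocyte and mast cell markers fell. The 1 tested endothelial and stromal marker rose, and 0 of 2 tested epithelial markers passed. Among all genes tested, 1.00% were called higher and 0.509% lower. The lowest summed count of a gene in the deposited table was 10, so no marker in it could be at 0 in every library. Marco, Cd4, Cd8a and Ms4a1 were not analysed here. The part of these markers in the values below was not tested.

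The promoters of the cytosolic and the mitochondrial NADP-dependent isocitrate dehydrogenases, Idh1 and Idh2, are shown, chosen after their values were seen, because the ratio of their counts had no overlap between the groups, as described below. Each is the 250 bases before the RefSeq start (GRCm38.p6, 5′ to 3′ on the gene's strand, the first of 2 listed starts for Idh1). Capitals mark CCAAT, the core bound by the factor NF-Y, searched as CCAAT and as its reverse complement ATTGG.
Idh1 (chr1:65186480-65186729, minus strand): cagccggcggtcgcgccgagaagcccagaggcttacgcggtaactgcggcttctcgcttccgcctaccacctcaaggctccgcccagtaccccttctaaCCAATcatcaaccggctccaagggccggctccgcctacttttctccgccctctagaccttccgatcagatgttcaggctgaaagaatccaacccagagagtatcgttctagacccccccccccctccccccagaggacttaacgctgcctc
Idh2 (chr7:80115351-80115600, minus strand): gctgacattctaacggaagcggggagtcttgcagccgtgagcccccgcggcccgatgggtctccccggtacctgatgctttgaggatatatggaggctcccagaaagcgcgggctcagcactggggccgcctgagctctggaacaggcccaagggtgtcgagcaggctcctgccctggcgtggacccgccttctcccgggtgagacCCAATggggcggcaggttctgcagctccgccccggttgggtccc
Both promoters shown hold CCAAT once, while that of the second listed Idh1 start (chr1:65179143-65179392) holds it 0 times in either orientation. The motif was present in a promoter of 16 of the 27 members with an entry (59.3%), beside 37.5% of 27025 genes and 33.8% of all 32851 promoters of that length. A match is a description of the sequence and does not show binding.

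Across the 30 genes, 1 rose, 0 fell and 29 did not pass an adjusted p of 0.05 in Piezo1_KO against WT (edgeR quasi-likelihood test, Benjamini-Hochberg adjustment over all 14149 genes tested). Among all genes tested, 1.51% passed, 1.00% higher and 0.509% lower in Piezo1_KO, so 1 call in 30 is near the share of the whole table. The median log2 fold change of the members was 0.039, beside 0.018 over all genes tested, and 17 were above and 13 below 0. For 25 of the 30, the log2 fold change lay within 0.25 of 0. At an unadjusted p under 0.05 there were 5 members (16.7%), beside 13.2% of all genes tested, and DESeq2 called 2 members higher and 0 lower, beside 4.19% of all genes that it called in either direction. The summed level of the 30 genes was 5453, 5554 and 5432 CPM in Piezo1_KO replicates 1, 2 and 3 and 5256, 5600 and 5151 CPM in WT replicates 1, 2 and 3. These sums overlapped between the groups.

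**Figure D1:**
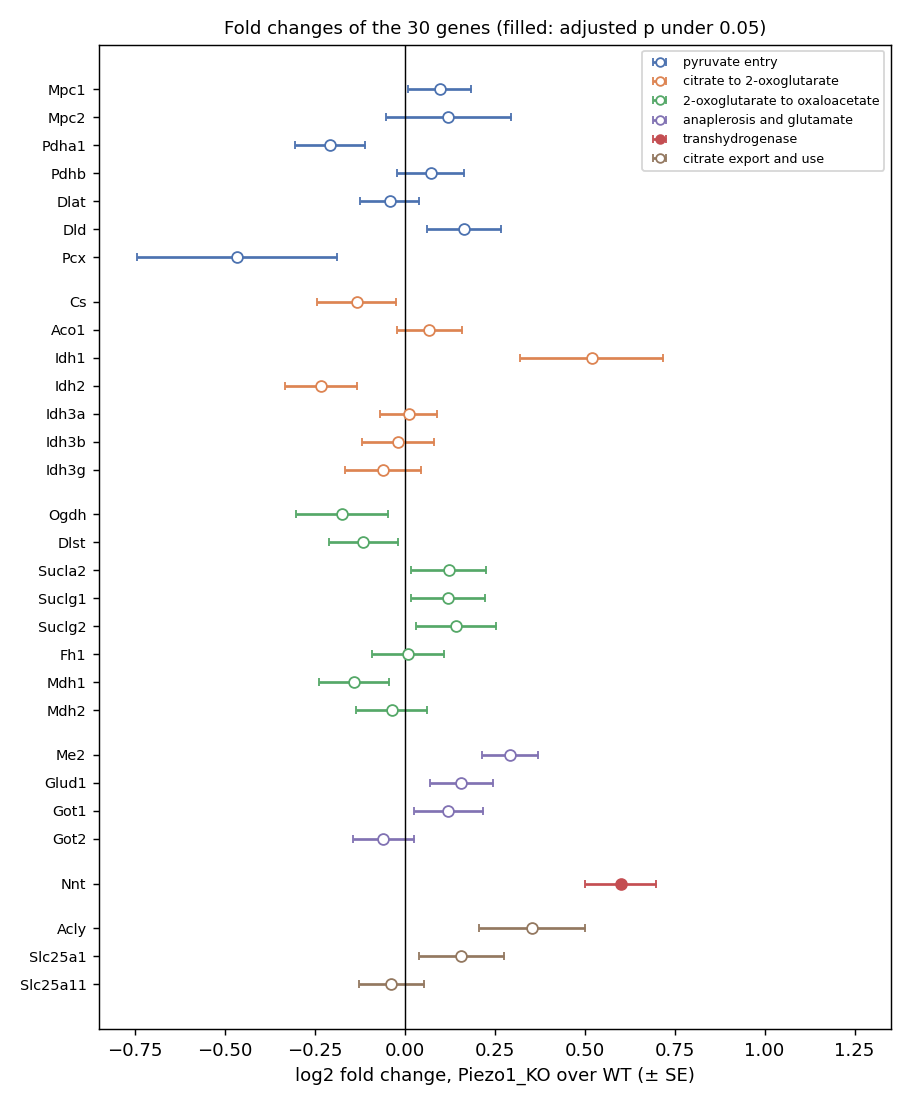
Log2 fold change of each of the 30 genes, Piezo1_KO over WT, with its SE (x axis), grouped by step of the pathway (colours). Filled points passed an adjusted p of 0.05 (edgeR). Nnt alone is filled, at 0.60, while 25 of the 30 genes lie within 0.25 of 0.

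Nnt was the member that rose. It encodes the nicotinamide nucleotide transhydrogenase of the inner mitochondrial membrane, which uses the proton gradient to make NADPH from NADH. Its level was 43.5, 40.8 and 43.6 CPM in Piezo1_KO replicates 1, 2 and 3, against 27.5, 30.1 and 26.7 CPM in WT replicates 1, 2 and 3. All 3 Piezo1_KO libraries lay above all 3 WT libraries, and neither group held a library far from the other 2. The mean was 42.6 ± 1.59 CPM in Piezo1_KO and 28.1 ± 1.77 CPM in WT (SD, n = 3 each), a 1.52-fold difference (log2 fold change 0.60 ± 0.10, SE, adjusted p = 0.0277, edgeR). The fold change kept its size in all 13 alternative fits (0.56 to 0.63), but the adjusted p ranged from 8.70e-05 to 0.168 and passed in 8 of them. The call was lost without Piezo1_KO replicate 1 (0.129), 2 (0.145) or 3 (0.148), without WT replicate 1 (0.145), and in the replicate block (0.168).

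Nnt lies on chromosome 13 (119335448 to 119408997 in mm10, minus strand). As background, the C57BL/6J strain, whose genome is the mm10 reference, is known to carry a deletion of several Nnt exons, and some other C57BL/6 substrains do not. Gene-level counts do not show which allele the mice of either group carried. Of the 8 other tested genes within 500 kb of Nnt, a window chosen after the value of Nnt was seen, 0 passed in edgeR and 3 had an unadjusted p under 0.05, which 13.2% of all genes tested had. The closest, Paip1, which encodes a poly(A)-binding protein partner, was at 3.76 ± 0.262 CPM in Piezo1_KO and 5.51 ± 0.672 CPM in WT (SD, n = 3 each, adjusted p = 0.314, edgeR). Tmem267 averaged 0.617 ± 0.157 CPM in Piezo1_KO and 1.72 ± 0.635 CPM in WT (SD, n = 3 each, adjusted p = 0.168, edgeR). Hmgcs1, which encodes an early enzyme of sterol synthesis, averaged 226 ± 8.13 CPM in Piezo1_KO and 168 ± 24.9 CPM in WT (SD, n = 3 each, adjusted p = 0.157, edgeR).

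Of the 7 genes of pyruvate entry, 0 rose and 0 fell. Pdha1, the catalytic alpha subunit of pyruvate dehydrogenase and the target of its inhibitory phosphorylation, was at 202, 199.995 and 198 CPM in Piezo1_KO replicates 1, 2 and 3 and at 229, 255 and 209 CPM in WT replicates 1, 2 and 3. The groups did not overlap, and the WT libraries were spread more widely than the Piezo1_KO libraries. The log2 fold change was −0.21 ± 0.10 (SE, adjusted p = 0.415, edgeR). Pdhb, the beta subunit of the same enzyme, had 0.072 ± 0.09, and Dlat and Dld, which encode its acetyltransferase core and its dihydrolipoyl dehydrogenase, −0.043 ± 0.08 and 0.16 ± 0.10. Mpc1 and Mpc2 form the mitochondrial pyruvate carrier and had 0.097 ± 0.09 and 0.12 ± 0.17.

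Pcx, pyruvate carboxylase, which makes oxaloacetate directly from pyruvate, was the member with the lowest level per kilobase in both groups. It was at 15.6, 11.8 and 15.5 CPM in Piezo1_KO replicates 1, 2 and 3 and at 20.5, 26.7 and 11.6 CPM in WT replicates 1, 2 and 3. WT replicate 3 lay below all 3 Piezo1_KO libraries and the other 2 WT libraries above them. Its log2 fold change of −0.47 ± 0.28 (SE) was the lowest of the 30 and did not pass (adjusted p = 0.537, edgeR). It was −0.20 without WT replicate 2 and −0.73 without WT replicate 3.

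**Figure D2:**
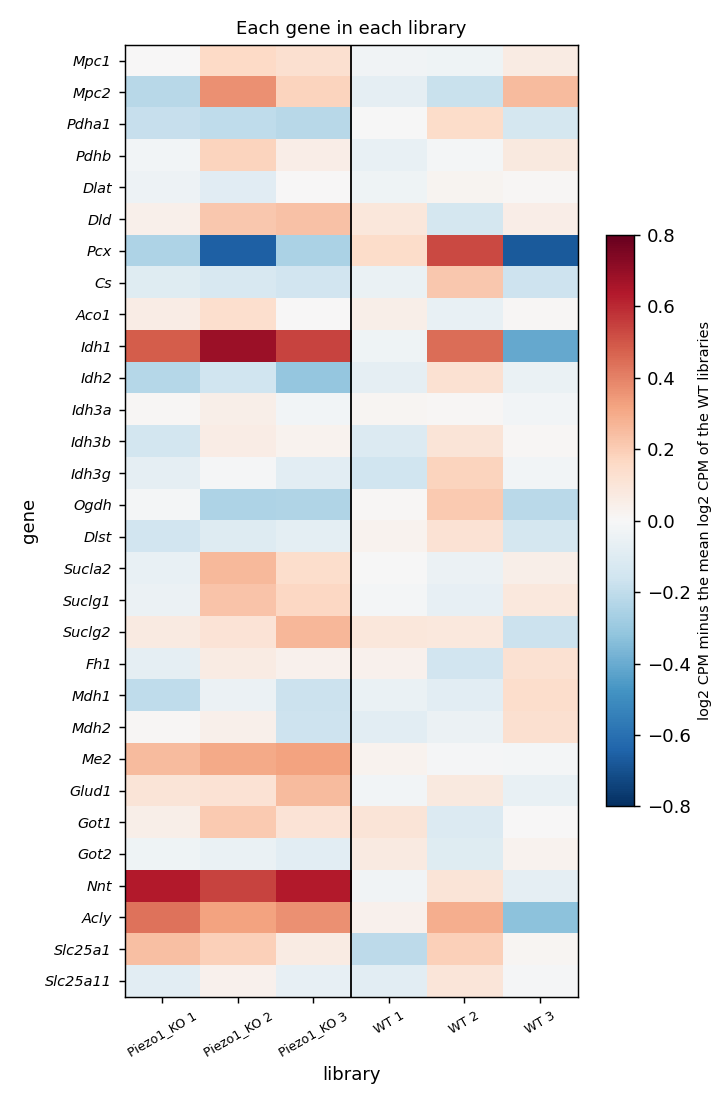
Heat map of log2 CPM of each gene (rows) in each library (columns), minus the mean log2 CPM of the 3 WT libraries. Nnt and Me2 are above 0 in all 3 Piezo1_KO libraries and near 0 in all 3 WT libraries, while Pcx, Idh1 and Acly also vary widely among the WT libraries.

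From citrate to 2-oxoglutarate, 0 of 7 genes passed, and their log2 fold changes ran from −0.23 to 0.52. Idh1, the cytosolic NADP-dependent form, was at 33.9, 38.9 and 35.2 CPM in Piezo1_KO replicates 1, 2 and 3 and at 23.6, 33.004 and 18.2 CPM in WT replicates 1, 2 and 3. The groups did not overlap, though WT replicate 2 came within 1 CPM of the lowest Piezo1_KO library. The log2 fold change was 0.52 ± 0.20 (SE, adjusted p = 0.309, edgeR), and it passed only without WT replicate 2 (0.76, adjusted p = 0.0329) among 13 alternatives whose adjusted p reached 0.774.

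Idh2, the mitochondrial NADP-dependent form, was at 43.0, 45.3 and 40.7 CPM in Piezo1_KO replicates 1, 2 and 3 and at 48.0, 54.96 and 48.6 CPM in WT replicates 1, 2 and 3, again without overlap and with WT replicate 2 highest. Its log2 fold change was −0.23 ± 0.10 (SE, adjusted p = 0.368, edgeR). The 3 subunits of the NAD-dependent enzyme of the cycle itself, Idh3a, Idh3b and Idh3g, had 0.010 ± 0.08, −0.020 ± 0.10 and −0.062 ± 0.11. Cs, citrate synthase, was at 485 ± 8.63 CPM in Piezo1_KO and 532 ± 73.5 CPM in WT (SD, n = 3 each), and Aco1, the cytosolic aconitase that doubles as an iron sensor, at 53.8 ± 2.47 CPM in Piezo1_KO and 51.4 ± 1.98 CPM in WT.

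Ratios within a library do not depend on how libraries are scaled to each other, so 9 pairs of subunits, isozymes or alternative routes were compared as count ratios. The Idh1/Idh2 ratio was 0.789, 0.860 and 0.864 in Piezo1_KO replicates 1, 2 and 3 and 0.492, 0.601 and 0.374 in WT replicates 1, 2 and 3. The groups did not overlap, and the difference of the mean log2 ratios was 0.80, from −0.26 ± 0.07 in Piezo1_KO and −1.06 ± 0.34 in WT (SD, n = 3 each). Idh1 and Idh2 each had groups without overlap, in opposite directions, so their ratio is not a separate observation. The two-sided exact permutation p was 0.1, the smallest that 3 libraries against 3 can give, and 0.45 when adjusted over the 9 pairs (Benjamini-Hochberg).

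The Got1/Got2 ratio, of the cytosolic to the mitochondrial aspartate aminotransferase, was the other pair without overlap. It was 0.416, 0.472 and 0.4495 in Piezo1_KO replicates 1, 2 and 3 and 0.403, 0.391 and 0.386 in WT replicates 1, 2 and 3, a log2 difference of 0.18 with the same exact p of 0.1 and adjusted p of 0.45. For Mdh1/Mdh2, the cytosolic and mitochondrial malate dehydrogenases, the log2 difference was −0.10 (exact p = 0.2, adjusted 0.45, n = 3 each), and for Pdha1/Pdhb it was −0.27 (exact p = 0.2, adjusted 0.45). Pcx/Me2, which sets carboxylation of pyruvate beside a malic enzyme, differed by −0.68 (exact p = 0.3, adjusted 0.54) with overlapping groups. The remaining 4 pairs, Mpc1/Mpc2, Suclg2/Sucla2, Idh3a/Idh3b and Idh3b/Idh3g, differed by −0.012 to 0.035. A 3 against 3 design cannot pass 0.05 in this test. Groups did not overlap for 20.6% of single genes tested, and the share over ratios of other genes was not computed.

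**Figure D3:**
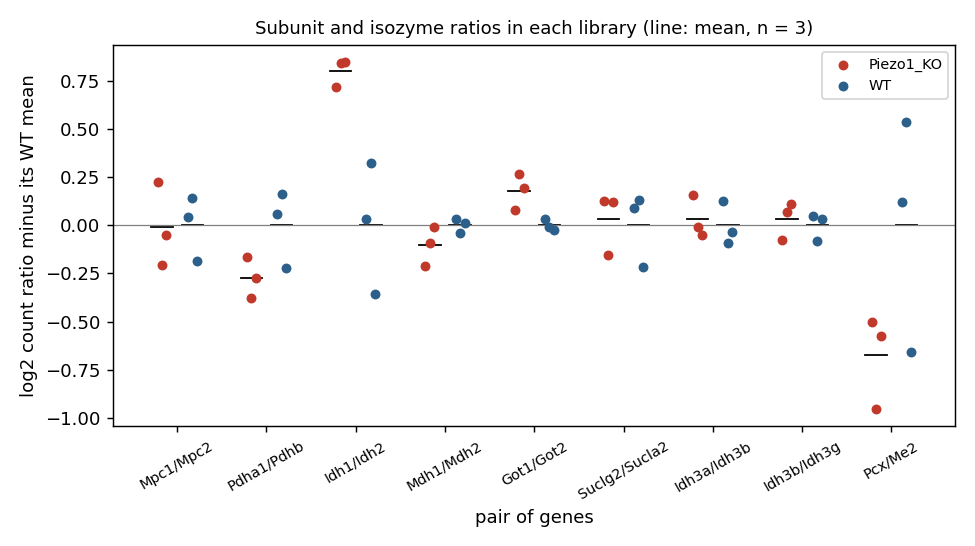
Log2 count ratio of each of the 9 pairs of genes in each library, minus the mean of the 3 WT libraries (y axis), with Piezo1_KO left of WT in each pair and lines at the group means. Idh1/Idh2 and Got1/Got2 are the pairs whose groups do not overlap, with mean differences of 0.80 and 0.18.

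From 2-oxoglutarate to oxaloacetate, 0 of 8 genes passed, and their log2 fold changes ran from −0.17 to 0.14. Ogdh and Dlst, which encode components of the 2-oxoglutarate dehydrogenase complex, had −0.17 ± 0.13 and −0.12 ± 0.10 (SE). Suclg1, the alpha subunit that all succinyl-CoA ligases share, had 0.12 ± 0.10, and its ATP-forming and GTP-forming partners Sucla2 and Suclg2 had 0.12 ± 0.10 and 0.14 ± 0.11. Fh1, fumarate hydratase, had 0.0086 ± 0.10, Mdh1 −0.14 ± 0.10 and Mdh2 −0.037 ± 0.10. None of these 8 genes had groups without overlap. Their adjusted p ran from 0.595 to 0.984 (edgeR).

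Of the 4 genes of anaplerosis and glutamate handling, 0 passed. Me2, the mitochondrial malic enzyme that turns malate into pyruvate, was at 283, 293 and 296 CPM in Piezo1_KO replicates 1, 2 and 3 and at 242, 236 and 235 CPM in WT replicates 1, 2 and 3. Its coefficient of variation was 2.34% in Piezo1_KO and 1.66% in WT, with means of 291 ± 6.80 CPM in Piezo1_KO and 238 ± 3.94 CPM in WT (SD, n = 3 each). The log2 fold change of 0.29 ± 0.08 (SE) did not pass in edgeR (adjusted p = 0.145), and it passed in 1 of 13 alternatives, the DESeq2 Wald test (0.0151, with a range of 0.0151 to 0.539 over all 13).

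Glud1, the glutamate dehydrogenase that turns glutamate into 2-oxoglutarate, was at 369, 373 and 410 CPM in Piezo1_KO replicates 1, 2 and 3 and at 339, 364 and 330 CPM in WT replicates 1, 2 and 3. The groups did not overlap, but WT replicate 2 lay close to Piezo1_KO replicate 1, and the log2 fold change was 0.16 ± 0.09 (SE, adjusted p = 0.515, edgeR). Got1 and Got2, which work in the malate-aspartate shuttle, had 0.12 ± 0.10 and −0.060 ± 0.09. Got2 is the member on chromosome 8, which also holds Piezo1, at a distance of 26.6 Mb.

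On the side of citrate export, Acly, the ATP-citrate lyase that makes cytosolic acetyl-CoA, was at 750.0, 692 and 715 CPM in Piezo1_KO replicates 1, 2 and 3 and at 568, 678 and 442 CPM in WT replicates 1, 2 and 3. All 3 Piezo1_KO libraries were higher, yet WT replicate 2 was close to them and WT replicate 3 far below. The log2 fold change of 0.35 ± 0.15 (SE) did not pass (adjusted p = 0.356, edgeR), and no alternative passed (0.0823 to 0.714). The citrate carrier Slc25a1 had 0.16 ± 0.12 and the oxoglutarate-malate carrier Slc25a11 −0.038 ± 0.09.

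**Figure D4:**
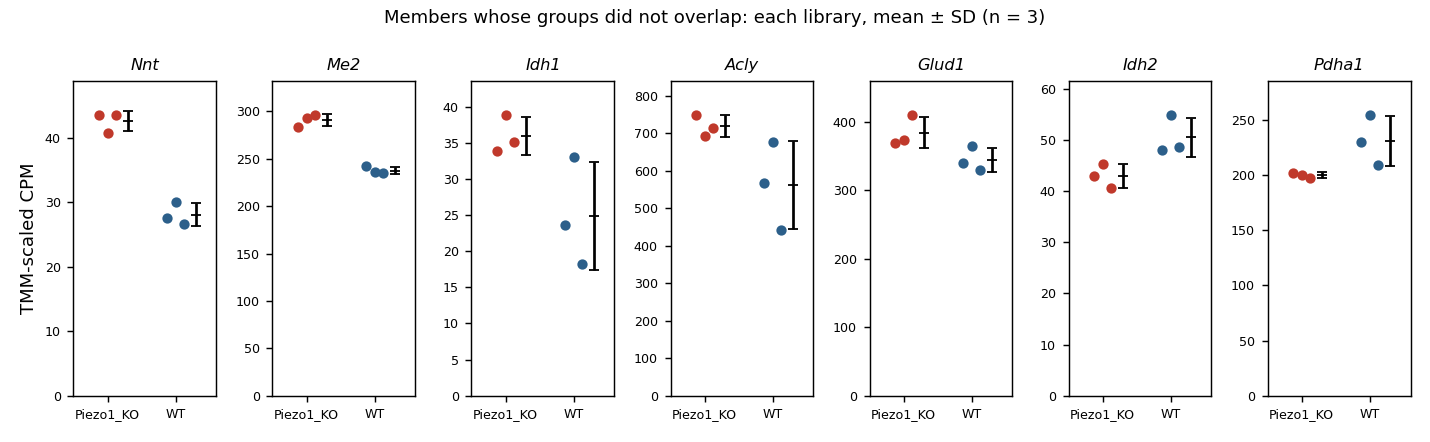
TMM-scaled CPM in each library (points) with the mean ± SD of 3 libraries (bars) for the 7 members whose groups do not overlap, Piezo1_KO left of WT. Nnt, Me2, Idh1, Acly and Glud1 are higher and Idh2 and Pdha1 lower in all 3 Piezo1_KO libraries, and Nnt alone passed the threshold.

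In all, 7 of the 30 genes (23.3%) had no overlap between the groups, 5 higher and 2 lower in Piezo1_KO. The same held for 20.6% of all genes tested, so this share is near that of the whole table. The median coefficient of variation of a member between libraries was 5.65% in Piezo1_KO and 7.87% in WT. Within Piezo1_KO, replicate 2 was the highest of the 3 libraries for 16 members and replicate 1 lowest for 16. Within WT, replicate 2 was the highest for 15 members, among them Pcx, Cs, Idh1, Idh2, Ogdh and Acly, and the lowest for 10, while replicate 3 was the lowest for 12. The ribosomal protein share was highest in replicate 2 within Piezo1_KO (3.39%) and lowest in replicate 2 within WT (1.89%), and its part in these values was not tested.

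Levels of different genes were compared per kilobase of the principal transcript. Mdh2 was the most abundant member, at 345 ± 26.2 CPM per kb in Piezo1_KO and 354 ± 28.8 CPM per kb in WT (SD, n = 3 each), and its WT range lay above that of Cs, next in order. Cs, Mpc1, Mdh1, Acly and Got2 followed, each with a range in WT that overlapped its neighbour's. The low end held Nnt, at 12.8 ± 0.476 CPM per kb in Piezo1_KO and 8.41 ± 0.529 CPM per kb in WT, and Pcx, at 3.53 ± 0.537 CPM per kb in Piezo1_KO and 4.83 ± 1.87 CPM per kb in WT. Mpc1 was at 168 ± 9.48 CPM per kb in Piezo1_KO and 157 ± 6.13 CPM per kb in WT, and its partner Mpc2 at 36.8 ± 7.34 CPM per kb in Piezo1_KO and 33.9 ± 5.45 CPM per kb in WT. The ATP-forming Sucla2, at 43.2 ± 4.79 CPM per kb in Piezo1_KO and 39.7 ± 1.25 CPM per kb in WT, lay above the GTP-forming Suclg2, at 14.1 ± 1.03 CPM per kb in Piezo1_KO and 12.8 ± 1.27 CPM per kb in WT. The length of the principal transcript sets these values, and the transcript forms present in these cells were not measured.

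**Figure D5:**
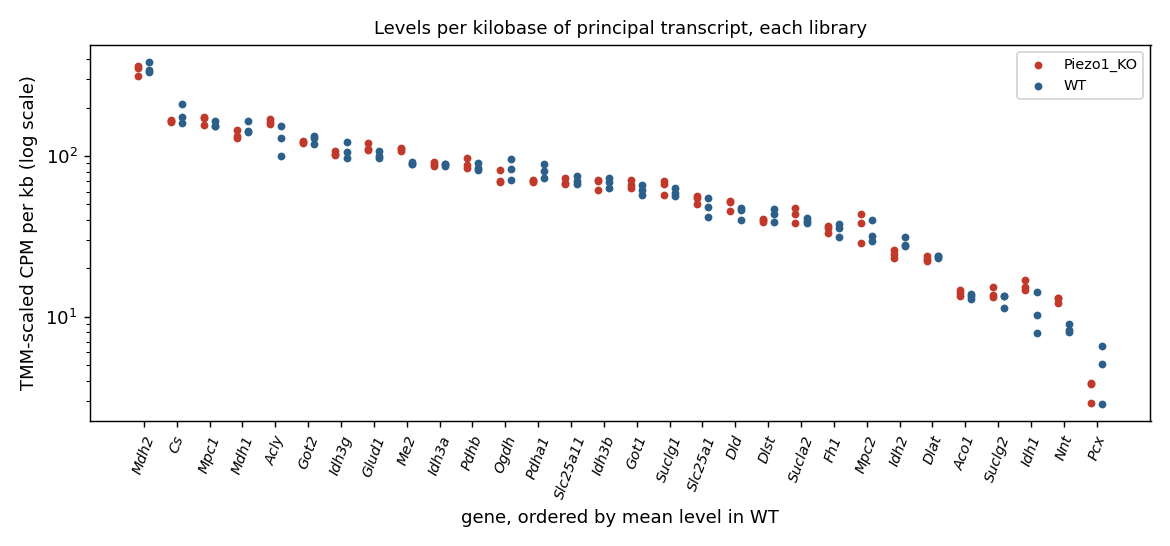
TMM-scaled CPM per kilobase of principal transcript (log scale) of each gene in each library, ordered by the mean in WT, Piezo1_KO left of WT. Levels run from 354 CPM per kb (Mdh2) to 4.83 CPM per kb (Pcx) in WT, and Nnt is among the lowest members in both groups.

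Another 58 genes of regulation, glutamine and proline metabolism, succinate dehydrogenase, shuttles, lactate and acetyl-CoA were listed around the 30, and 52 of them are in the table. Of the 51 tested, 1 rose, 0 fell and 50 did not pass, while 1.51% of all genes tested passed. Their median log2 fold change was 9.76e-05, beside 0.018 over all genes tested. The groups did not overlap for 14 of the 51 (27.5%), beside 20.6% of all genes tested. Slc16a3, the lactate exporter MCT4, was at 618, 624 and 542 CPM in Piezo1_KO replicates 1, 2 and 3 and at 370, 433 and 423 CPM in WT replicates 1, 2 and 3, without overlap. Its log2 fold change was 0.54 ± 0.10 (SE, adjusted p = 0.0429, edgeR), and it passed in 6 of 13 alternatives (0.000132 to 0.267). The call was lost without each Piezo1_KO replicate, without WT replicate 1, without WT replicate 3, without a filter on low counts and in the replicate block.

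The next smallest p-values, of genes chosen after their values were seen, did not pass in edgeR. Slc25a10, the mitochondrial dicarboxylate carrier, was at 31.8, 31.4 and 25.8 CPM in Piezo1_KO replicates 1, 2 and 3 and at 40.2, 49.4 and 45.2 CPM in WT replicates 1, 2 and 3, without overlap (log2 fold change −0.60 ± 0.13, SE, adjusted p = 0.0703, and 2 of 13 alternatives passed, 0.00346 to 0.262). Pdk1, a kinase that phosphorylates and inhibits pyruvate dehydrogenase, was at 92.0, 101 and 100.7 CPM in Piezo1_KO replicates 1, 2 and 3 and at 72.3, 82.5 and 63.4 CPM in WT replicates 1, 2 and 3. Its log2 fold change was 0.43 ± 0.11 (SE, adjusted p = 0.141, with 3 of 13 alternatives past the threshold, 0.0277 to 0.518).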

How the data were processed

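RNA of 6 libraries of sorted mouse lung ILC2s, made from 10 ng of RNA each, was measured. The authors deposited gene-level estimated counts without scaling between libraries, with 37.9% to 47.4% of a library's values not whole. The submitters' processing notes name the build mm10. For the aligner, counter, annotation and strandedness, nothing is given in the sources used here. Reads of antisense or overlapping genes and processed pseudogenes may therefore not have been told apart. Libraries were matched to samples by description, and groups taken from the titles. Counts were rounded, filtered with filterByExpr (14149 genes), scaled by TMM and tested with edgeR 4.0.16 (glmQLFit, glmQLFTest, R 4.3.3, two-sided, threshold 0.05). The SE is the absolute log2 fold change divided by the square root of F. Chi-square per gene between replicates was at least 9.97, so no replicates agreed within sampling noise.

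Members and lists were chosen with earlier results of these data known. All members are reported, and of the related genes each one past the threshold. Positions and principal (APPRIS) transcript lengths are from GENCODE M21 (GRCm38, which is mm10, 17603 symbols matched), promoters from RefSeq (GRCm38.p6, 27 of 30 members). Alternatives were RLE size factors, no filter, a filter keeping genes that reach 1 CPM throughout either group, protein-coding genes only, a replicate block, DESeq2 1.42.0, limma-voom (limma 3.58.1) with quality weights, and each library left out. Ratios were tested with SciPy 1.17.1.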

Additional observations from a re-analysis of the deposited data

How the results depend on the processing

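The direction of Nnt was kept in all 13 alternative fits, and its call in 8. The replicate block (adjusted p = 0.168 for Nnt) left 0 members, 0 related genes, and 37 higher and 15 lower genes of the whole table past the threshold, and changed the call of no other member. The same-numbered libraries do not deviate together (correlations −0.023, −0.18 and −0.0075), and no library correlated best with its own number. Where a library was left out, 0 to 2 members and 0 to 2 related genes were called higher, 0 of either lower, and 22 to 209 higher and 10 to 92 lower genes of the table, the 2 members being Nnt and Idh1 without WT replicate 2. DESeq2 called 2 members and 2 related genes higher, 1 related gene lower, and 352 higher and 241 lower genes in all. Limma-voom called 2 related genes higher and 267 higher and 172 lower genes in all, protein-coding genes only gave 257 and 136 with 1 related gene lower, and without a filter 0 related genes were called. Piezo1 passed with protein-coding genes only (−0.83), in DESeq2 (−0.85), in limma-voom (−0.93) and without WT replicate 3 (−0.70 to −1.05 over the 6 fits that leave out a library).

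Fold changes near 0 changed sign: in limma-voom for Idh3b (0.060), Idh3g (0.033) and Slc25a11 (0.015), and with a library left out for Mpc2 (−0.016 to 0.26), Idh3a (−0.0086 to 0.027), Idh3b (−0.076 to 0.031), Idh3g (−0.14 to 0.017), Fh1 (−0.083 to 0.069) and Mdh2 (−0.080 to 0.030). The log2 ratio differences of Mpc1/Mpc2 (−0.13 to 0.086), Suclg2/Sucla2 (−0.076 to 0.13), Idh3a/Idh3b (−0.032 to 0.093) and Idh3b/Idh3g (−0.0055 to 0.089) did so too, while Idh1/Idh2 stayed between 0.62 and 0.96, Got1/Got2 between 0.14 and 0.23, Pdha1/Pdhb between −0.38 and −0.19, Mdh1/Mdh2 between −0.15 and −0.051, and Pcx/Me2 between −1.004 and −0.41. The median of the members ran from −0.012 to 0.066. Their summed level differed by 144 CPM (Piezo1_KO minus WT), by 18.3 CPM when scaled by library size only, and by 51.7 to 276 CPM with a library left out. The cause of these shifts was not tested.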
